A study of Mus musculus with 6 samples.

Results

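The list of differentially methylated regions (DMRs) between infant and young adult lung endothelial cells (EC) held 18333 DMRs. Of these, 110 had their midpoint in the gene body of 1 of 7 genes. These genes encode semaphorin receptors or effectors and components of the cytoskeleton. The genes were *Plxna1*, *Plxna4*, *Nrp1*, *Nrp2*, *Arhgef12*, *Sptbn1* and *Dpysl2*, and each of the 7 contained DMRs. A gene body ran from the first to the last base of the curated RefSeq transcripts of a gene on mm10 (GRCm38). The 7 genes were proposed with earlier results of these data known, so their large DMR numbers are a property of the choice and are given as a description.

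EC were sorted from the lungs of C57BL/6N mice, described as female in the study's methods, as CD31+CD34+ cells that were negative for PTPRC, LYVE1, LY76 and PDPN. Cells of 3 infant samples (8 to 10 days old) were compared with cells of 3 young adult samples (8 to 12 weeks old), and the labels give no treatment or transgene. Their DNA was sequenced after bisulfite treatment, which converts unmethylated cytosines, with libraries made by a transposase that cuts DNA and adds adaptors (T-WGBS). The deposited list gives a mean methylation per group and DMR, averaged over the CpGs of the DMR and the samples of the group.

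Values per sample were not used here. The spread between the 3 samples of a group and the read depth behind a DMR are therefore unknown, and no difference below could be set against replicate error. The study selected the DMRs with a test on these same samples, so the sizes are those of selected regions. A loss is a lower and a gain a higher mean in young adult than in infant EC, and differences are young adult minus infant in percentage points. A lower mean over sorted cells cannot be told apart from a change in the mix of EC subtypes within the gate.

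Semaphorins are secreted or membrane-bound guidance cues first known from growing axons, and they also guide, repel or stabilise blood vessels. Class A plexins such as PLXNA1 and PLXNA4 span the membrane and signal through small GTPases. For most secreted class 3 semaphorins they need a neuropilin to bind the ligand. NRP1 and NRP2 are these co-receptors, and both also bind members of the VEGF family. ARHGEF12 (LARG) activates RhoA downstream of B-type plexins and of G proteins, SPTBN1 is the non-erythroid beta-spectrin of the membrane skeleton and DPYSL2 (CRMP2) binds tubulin and carries semaphorin 3A signals to microtubules. Active enhancers, intronic ones included, are commonly low in CpG methylation.

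The DMRs printed here differed greatly in CpG density, and their sequences are shown for that reason. Some are the largest loss or gain of their gene, and others were taken for their CpGs. The sequences were read from the plus strand of mm10, 5′ to 3′, with CpGs in capitals. The first pair are from *Plxna1*, the 300 bases with the most CpGs of the DMR in exon 2 (chr6:89357024-89357323) and of the DMR with the most CpGs in intron 1 (chr6:89359863-89360162). For *Plxna4* the largest loss (chr6:32377120-32377129) and the largest gain (chr6:32338574-32338668) are shown whole. The stretch from *Nrp1* is the first 300 bases of its DMR with the most CpGs (chr8:128398176-128398475), with 4 of the 6 CpGs. The others are whole DMRs, the largest gain of *Nrp2* (chr1:62710097-62710173) and the largest losses of *Arhgef12* (chr9:43060107-43060164), *Sptbn1* (chr11:30154354-30154472) and *Dpysl2* (chr14:66815664-66815962).
Plxna1, exon 2: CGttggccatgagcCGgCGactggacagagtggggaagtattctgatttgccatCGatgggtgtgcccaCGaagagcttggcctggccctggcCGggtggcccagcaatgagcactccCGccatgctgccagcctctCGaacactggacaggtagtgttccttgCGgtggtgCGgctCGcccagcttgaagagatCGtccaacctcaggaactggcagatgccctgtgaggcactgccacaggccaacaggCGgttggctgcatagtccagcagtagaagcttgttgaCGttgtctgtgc
Plxna1, intron 1: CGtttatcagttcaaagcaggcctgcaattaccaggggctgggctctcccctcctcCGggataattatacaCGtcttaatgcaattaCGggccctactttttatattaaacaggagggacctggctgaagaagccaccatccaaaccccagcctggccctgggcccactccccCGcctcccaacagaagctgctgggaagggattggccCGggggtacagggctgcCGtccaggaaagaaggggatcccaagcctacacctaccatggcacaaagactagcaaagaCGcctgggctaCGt
Plxna4, loss: CGttCGttCG
Plxna4, gain: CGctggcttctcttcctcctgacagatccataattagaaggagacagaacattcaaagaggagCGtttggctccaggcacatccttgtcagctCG
Nrp1, intron 2: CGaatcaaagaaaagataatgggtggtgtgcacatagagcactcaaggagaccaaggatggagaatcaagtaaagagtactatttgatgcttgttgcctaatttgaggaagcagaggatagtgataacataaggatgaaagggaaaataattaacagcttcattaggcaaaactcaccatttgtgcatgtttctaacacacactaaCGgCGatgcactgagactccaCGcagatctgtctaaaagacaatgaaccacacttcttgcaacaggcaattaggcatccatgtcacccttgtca
Nrp2, gain: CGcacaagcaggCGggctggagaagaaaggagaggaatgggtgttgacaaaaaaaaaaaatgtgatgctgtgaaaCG
Arhgef12, loss: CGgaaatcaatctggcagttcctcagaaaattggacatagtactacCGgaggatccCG
Sptbn1, loss: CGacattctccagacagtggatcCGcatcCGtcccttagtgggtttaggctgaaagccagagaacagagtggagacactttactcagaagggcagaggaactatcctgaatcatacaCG
Dpysl2, loss: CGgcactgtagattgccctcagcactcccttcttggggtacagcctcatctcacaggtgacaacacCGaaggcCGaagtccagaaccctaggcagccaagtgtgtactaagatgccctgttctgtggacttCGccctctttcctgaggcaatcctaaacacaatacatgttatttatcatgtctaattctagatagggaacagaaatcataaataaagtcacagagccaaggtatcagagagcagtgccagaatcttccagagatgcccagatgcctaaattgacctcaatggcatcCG

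Loss of methylation prevailed, and within the gene bodies only *Plxna4* held DMRs of both directions. When each DMR was given instead to its nearest promoter, *Plxna1* (15 losses, 4 gains) and *Nrp2* (1 loss, 14 gains) were mixed and *Plxna4* was not. Genes with at least 1 loss were 6 of the 7 (8.46% of all 26182 genes) and with at least 1 gain 2 (11.4%). Of the 110 DMRs, 86 (78.2%) lost and 24 (21.8%) gained methylation. Among all listed DMRs 45.9% were losses and 54.1% gains, and among the 12175 DMRs within gene bodies 57.5% were losses and 42.5% gains. *Arhgef12* had 24 losses, *Sptbn1* 17, *Plxna1* 14, *Dpysl2* 14 and *Nrp1* 11, none of them with a gain. *Nrp2* had 9 gains and no loss. *Plxna4* had 6 losses and 15 gains.

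DMRs of a single direction are common in genes with many DMRs. Of the 255 genes with at least 9 DMRs, the lowest number in the 7 genes, 61.2% had DMRs of 1 direction. Loss alone was found in 56.9% of these genes, both directions in 38.8% and gain alone in 4.31%. The 5 loss-only genes thus share the most frequent pattern, whereas *Nrp2* was 1 of 11 gain-only genes. *Plxna4* was 1 of 99 mixed genes. The losses made up 28.6% of its DMRs, against 100% in each of the 5 loss-only genes and 0% in *Nrp2*. The genes were set against each other by these directions, so the shares are a description.

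**Figure D1:**
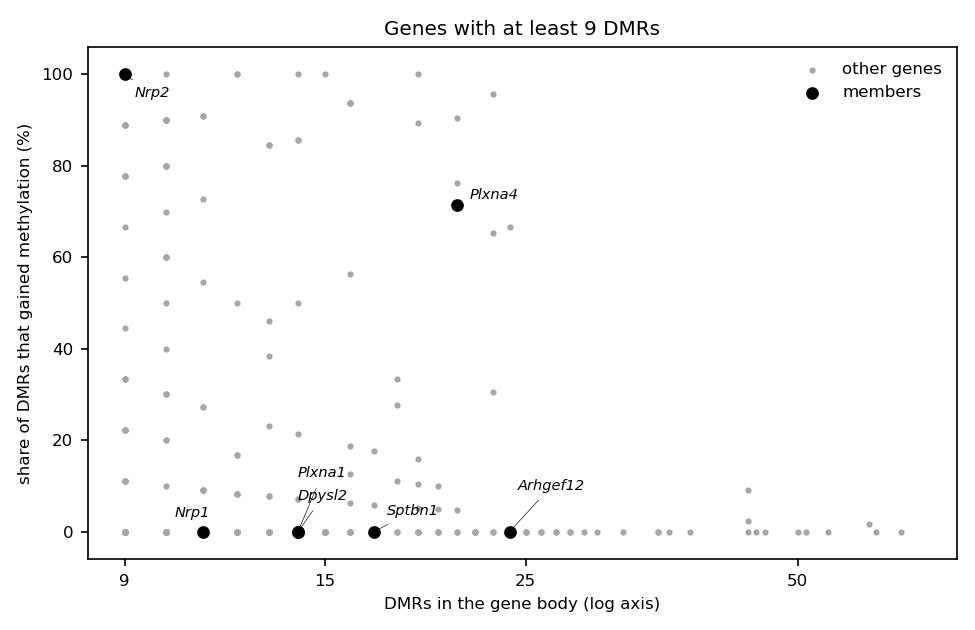
The horizontal axis (log scale) gives the number of DMRs in the gene body and the vertical axis the share that gained methylation, for 255 genes with at least 9 DMRs (grey, genes with equal values coincide) and the 7 members among them (black). *Plxna1*, *Nrp1*, *Arhgef12*, *Sptbn1* and *Dpysl2* lie at 0%, *Nrp2* at 100% and *Plxna4* at 71.4%.

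Most DMRs of the 7 genes lay in introns. By midpoint, 104 of 110 were intronic and 6 exonic, and by any overlap 12 touched an exon. Sequence upstream of a gene was outside the rule, so promoters were covered only in part. Of the intronic DMRs, 36 were in intron 1. The shares of introns and of intron 1 over all gene bodies are not given here, so these counts cannot show a preference. CpG island windows (200 bp, GC from 50%, CpG ratio of observed to expected over 0.6) overlapped 7 DMRs, of which 5 were in *Plxna1*, 1 in *Arhgef12* and 1 in *Sptbn1*. This was 6.36% of the 110, against 13.8% over all listed DMRs and 14.7% over those in gene bodies. The share differs by direction, and losses are more frequent among the 110 than in the list. All 7 were losses, 8.14% of the 86, against 11.6% over all listed losses and 11.8% over those in gene bodies. Of the 24 gains 0 overlapped such a window, against 15.8% over all listed gains. None of the midpoints lay in a second annotated gene.

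**Figure D2:**
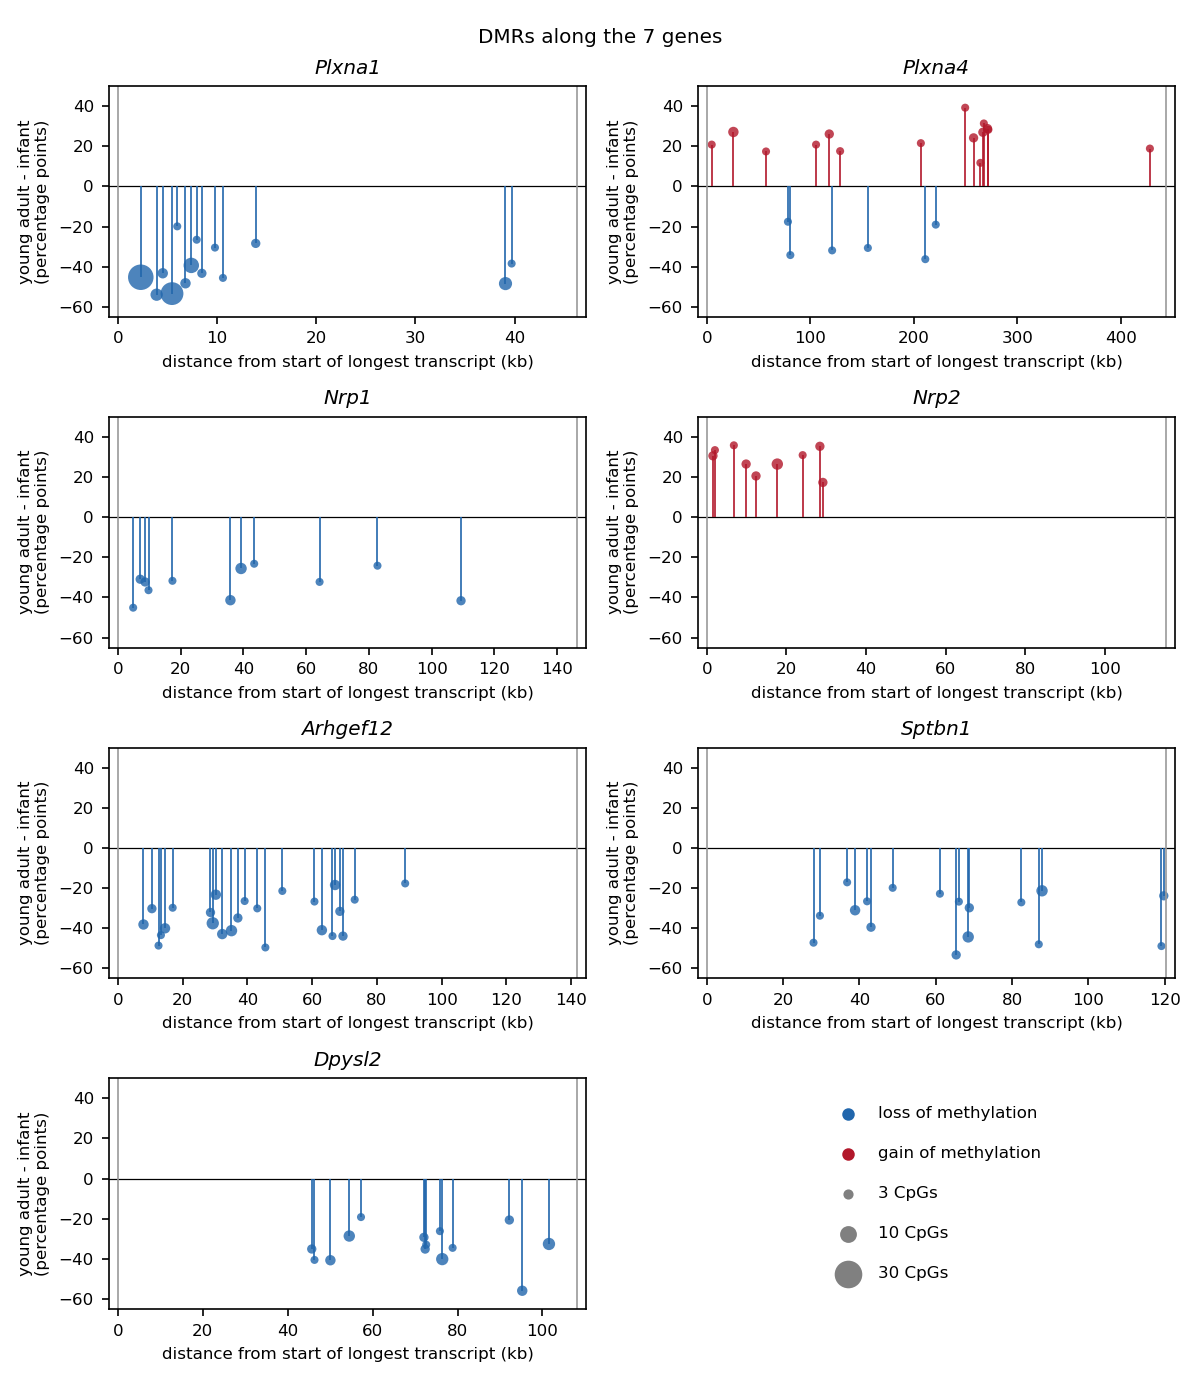
Each panel shows 1 gene, with the distance of a DMR from the start of the longest transcript in kb on the horizontal axis (grey lines mark the start and the end) and the young adult minus infant difference in percentage points on the vertical axis. Losses are blue, gains red and the area of a point is proportional to the number of CpGs. *Plxna1* carried its largest DMRs near the start, and *Nrp2* had gains only in the first 29.2 kb. In *Plxna4* short runs of losses and gains alternated from 78.4 to 221 kb, with gains alone on either side.

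*Plxna1* had the DMRs with the most CpGs among the 7 genes. The gene (chr6:89316313-89362613, minus strand, 46.3 kb) held 30.2 DMRs per 100 kb, many of them neighbours that merged into 6 when those within 500 bp were joined. The 14 DMRs covered 113 of the 721 CpGs of the gene (15.7%). This share ranked 20th among the 255 genes, whose median was 3.39%. The median methylation over the 14 DMRs was 79.5% in infant against 31.4% in young adult EC. The median difference was -43.3 points (range -54.0 to -19.9), and 8 of the 14 DMRs lost at least 40 points. Of all listed losses, 20.3% were that large.

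The first 12 of the 14 DMRs followed each other within 12.6 kb downstream of the promoter, with midpoints from 2.32 to 13.9 kb after the start site. They comprised 102 of the 162 CpGs of that stretch (63.0%). No DMR was listed in the next 25.01 kb, which has 313 CpGs. The remaining DMRs, near the end of the gene in introns 26 and 27, fell from 68.5 to 20.05% and from 80.4 to 42.0%.

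A single DMR in intron 1 of *Plxna1* (chr6:89359349-89361237) spanned 1889 bp and 30 CpGs, the highest CpG number in the whole list, which 1 gain DMR elsewhere shared. It was methylated at 51.9% in infant and at 6.66% in young adult EC. The largest loss of the gene lay beside it, also in intron 1 (chr6:89358380-89359009, 7 CpGs), where methylation dropped from 81.4 to 27.4%. The last DMR of the first 12 started low, at 29.3%, and was nearly unmethylated in young adult EC, at 0.868%. A DMR in exon 2 with 3 CpGs changed least, from 82.1 to 62.2%. It overlapped a CpG island window, as did DMRs in intron 2 (11 CpGs, from 69.9 to 30.5%) and intron 3 (3 CpGs, from 81.3 to 54.7%), the DMR of intron 27 and the large one in exon 2.

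Exon 2, which codes for the extracellular start of the receptor, held the second CpG-rich DMR (chr6:89356841-89357454). Its 24 CpGs were methylated at 85.8% in infant and at 32.4% in young adult EC, a difference of -53.4 points. The study's MassARRAY primers, designed for an independent methylation assay of bisulfite-converted DNA, matched the converted minus strand inside this DMR, so they are shown.
Plxna1, forward primer: tgtttatatggtttgggtagtatag
Plxna1, reverse primer: aaaaccaaacatatcaacatcttcc
The span from primer to primer was chr6:89356998-89357342, with 345 bp and 14 CpGs, and lay wholly within the DMR. The 300 bases printed above from exon 2 fall inside this span and hold the same number of CpGs. The study reports that MassARRAY on independent biological replicates reproduced its T-WGBS data to a high degree. Its MassARRAY values were not used here.

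*Plxna4*, the other class A plexin of the group, carried both gains and losses in its introns. The gene (chr6:32144543-32588192, minus strand, 444 kb) is the longest of the 7 and had 4.73 DMRs per 100 kb, which covered 69 of 3700 CpGs (1.87%). By number of gain DMRs it shared the 7th place among all genes with 5 others. The 15 gains rose from a median of 43.8 to 67.4%, by a median of 24.2 points (range 11.7 to 39.2). The 6 losses fell from a median of 64.1 to 28.8%, with a median difference of -31.3 points (range -36.3 to -17.6).

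Read from the start site, the 21 DMRs of *Plxna4* formed 9 runs of equal direction. The first 3 DMRs, in intron 1, were gains, at 4.83 to 57.3 kb from the start. They were followed by 2 losses in intron 2, at 78.4 and 80.8 kb. From there to the last loss at 221 kb, runs of 1 or 2 gains and of 1 or 2 losses alternated. The 6 losses thus occupied a stretch of 143 kb in introns 2 and 3, in which 4 gains were interspersed.

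Neighbours of opposite direction could be close. A gain in intron 3 at 118 kb rose from 27.2 to 53.3%, and a loss 2.77 kb further fell from 79.98 to 48.1%. A gain at 207 kb rose from 70.7 to 92.2%, and the largest loss of the gene lay 4.29 kb further, where methylation fell from 60.4 to 24.1%. This loss was 10 bp long and consisted of the 3 CpGs printed above.

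Intron 3 (186 kb) contained 15 of the 21 DMRs of *Plxna4*, 11 gains and 4 losses. Behind the last loss, 7 gains stood within 22.5 kb, at 250 to 272 kb from the start. At the median they had 36.1% in infant against 67.4% in young adult EC. The first of them was the largest gain of the gene, from 14.6 to 53.8%. The smallest gain, from 84.3 to 96.0%, was also among them. No DMR was listed in the following 156 kb, and the last gain, in intron 29, rose from 22.7 to 41.5%.

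All 6 losses of *Plxna4* consisted of 3 CpGs, the fewest that the list allows, and 10 of the 15 gains did so too. Over all listed losses 52.5% and over all listed gains 78.5% had 3 CpGs. With DMRs of at least 4 CpGs alone, *Plxna4* had 5 gains and 0 losses. Its mixed pattern therefore rests on losses of 3 CpGs. By infant level the losses (35.3 to 79.98%) and the gains (11.3 to 84.3%) overlapped.

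Among the 92 genes with at least 15 DMRs, 5 had a gain share nearest to that of *Plxna4* (71.4%). *Foxp1*, which encodes a forkhead transcription factor, had 8 losses and 16 gains (66.7% gains). *St6galnac3*, a sialyltransferase gene, had 5 losses and 16 gains (76.2%), and the noncoding *Tbx3os1* had 8 and 15 (65.2%). *Bcas3* followed with 7 losses and 9 gains (56.2%) and *Lrmda* with 2 and 17 (89.5%). The likeness is in the share of gains over 16 to 24 DMRs and says nothing of their order.

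**Figure D3:**
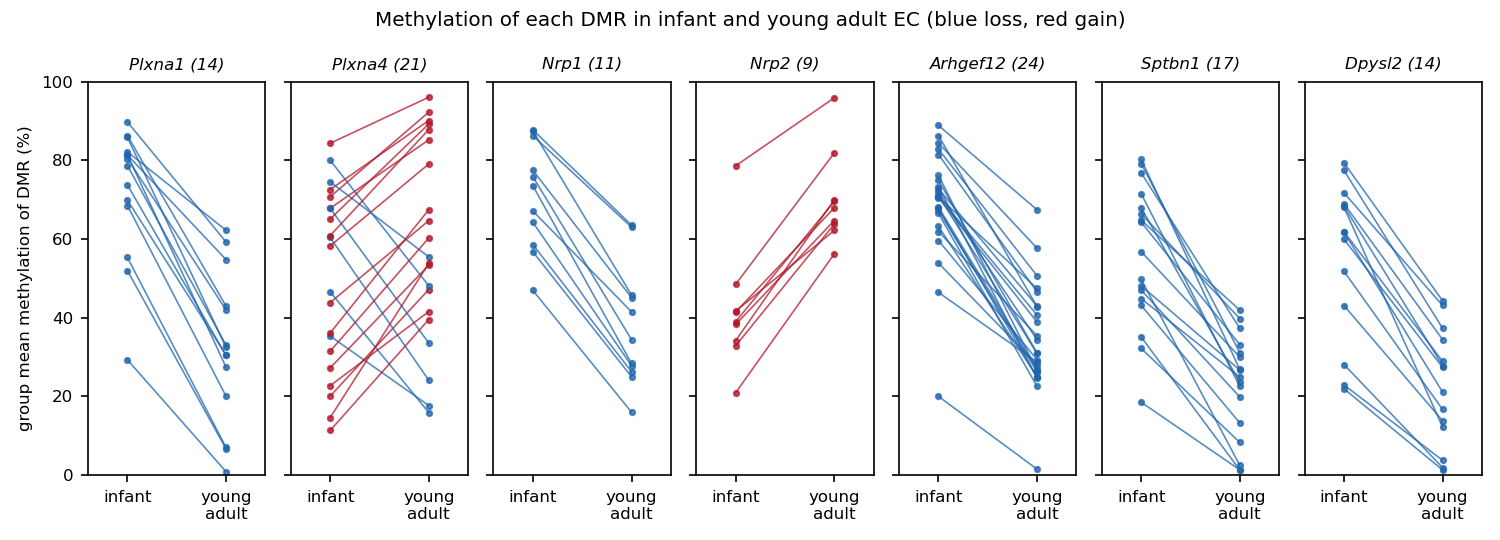
Each line joins the group mean methylation in percent of 1 DMR in infant (left) and young adult EC (right), in 1 panel per gene with the number of DMRs in brackets. Losses are blue and gains red. Lines fall in *Plxna1*, *Nrp1*, *Arhgef12*, *Sptbn1* and *Dpysl2*, rise in *Nrp2* and cross in *Plxna4*.

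The 2 neuropilin genes changed in opposite directions. *Nrp1* (chr8:128359073-128505476, plus strand, 146 kb) had 11 losses and 0 gains, and *Nrp2* (chr1:62703317-62818692, plus strand, 115 kb) had 9 gains and 0 losses. Their DMR densities were alike, at 7.51 and 7.80 per 100 kb. Over the DMRs of *Nrp1* the median methylation was 73.5% in infant against 34.4% in young adult EC, and over those of *Nrp2* it was 39.0 and 67.9%. Infant levels of the DMRs ran from 46.9 to 87.7% in *Nrp1* and from 20.9 to 78.6% in *Nrp2*, so they overlapped.

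The losses of *Nrp1* had a median difference of -32.3 points (range -45.1 to -23.2). Of the 11 DMRs, 8 were in intron 2 (55.3 kb), where they covered 31 of 313 CpGs (9.90%). The largest loss was the first of them, 4.91 kb from the start (chr8:128363830-128364139), from 73.5 to 28.3%. The DMR with the most CpGs, 6, was at 39.3 kb and fell from 67.1 to 41.5%. Further down, DMRs in introns 3 and 6 fell from 77.4 to 45.1% and from 87.7 to 63.5%.

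The last DMR of *Nrp1* lay within exon 9 (chr8:128468423-128468472, 4 CpGs), 109 kb from the start. Its methylation fell from 87.4 to 45.7%, the second largest loss of the gene. Young adult EC kept between 34.0 and 73.1% of the infant level over the 11 DMRs. The lowest young adult level was 16.0%, in the second DMR of intron 2.

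The gains of *Nrp2* were confined to the beginning of the gene. All 9 lay from 1.56 to 29.2 kb after the start, 5 in intron 1 and 4 in intron 2, and covered 35 of the 502 CpGs up to the last of them (6.97%). No DMR was listed in the remaining 86.1 kb with 1031 CpGs. The median gain was 30.5 points (range 17.3 to 35.8), above the 20.4 points over all listed gains. The largest gain, from 34.2 to 69.9% in intron 1, was chosen after its value was seen.

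Of the *Nrp2* DMRs, 8 were methylated at 20.9 to 48.5% in infant and at 56.2 to 81.8% in young adult EC. The ninth was already at 78.6% and reached 95.9%. The DMR with the most CpGs, 6 in intron 2 (chr1:62720920-62721171), rose from 38.3 to 64.7%. Regions outside the gene to which *Nrp2* was the nearest promoter in the list comprised 5 gains and 1 loss.

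*Arhgef12*, which encodes the RhoA activator, had the most DMRs of the 7 genes. All 24 in the gene (chr9:42963842-43105718, minus strand, 142 kb) were losses, and 27 genes of the genome had more DMRs. They covered 96 of 1316 CpGs (7.29%). The median level was 70.8% in infant against 30.9% in young adult EC. The median difference was -33.6 points (range -49.6 to -17.7).

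The long intron 1 (60.9 kb) contained 17 of the 24 *Arhgef12* DMRs, which covered 69 of its 452 CpGs (15.3%). They began 7.95 kb from the start and had a median difference of -34.9 points. The largest loss was among them (chr9:43060107-43060164), where methylation dropped from 76.1 to 26.5%. The DMR with the most CpGs, 7 at 29.3 kb from the start, fell from 71.9 to 34.4%. A DMR that overlapped a CpG island window, at 50.8 kb, fell from 88.8 to 67.4% and kept the highest young adult level of the gene.

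Intron 4 of *Arhgef12* held 5 further losses within 6.99 kb. A DMR there was low in infant EC, at 19.98%, and reached 1.48% in young adult EC. Its neighbours on either side fell from 74.9 to 31.0% and from 70.5 to 38.9%. The last DMR, in intron 10, fell from 46.4 to 28.7%, and the final 53.1 kb with 583 CpGs had no DMR.

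*Sptbn1*, the beta-spectrin gene (chr11:30099395-30219772, minus strand, 120 kb), lost methylation in 17 DMRs, with a median of 56.8% in infant against 24.9% in young adult EC. The median difference was -29.9 points (range -53.3 to -17.2), and 64 of 1045 CpGs (6.12%) were covered, 1 of them by a DMR centred just upstream. Of these DMRs, 7 were in intron 1. The first 3 reached 2.45, 1.28 and 1.32% in young adult EC, from 49.7, 35.1 and 18.5%. The largest loss, at the edge of exon 3 (4 CpGs), was from 80.2 to 26.8%.

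Exons of *Sptbn1* contained 3 DMRs. In exon 15 methylation fell from 47.0 to 19.8%. In exon 35, the last, a DMR that overlapped a CpG island window fell from 71.5 to 22.5% and another, 0.618 kb further, from 32.2 to 8.28%. The DMR with the most CpGs, 6 in intron 4, fell from 67.9 to 23.5%. A DMR in intron 16 had as many CpGs and fell from 48.1 to 26.7%.

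The start of *Sptbn1* was the only place where the midpoint rule decided on a DMR. A loss from 70.4 to 35.1% overlapped the first bases of the gene with its midpoint 0.077 kb upstream, and was not counted. It was the nearest of 23 DMRs upstream of the gene whose nearest promoter in the list was *Sptbn1*, a set chosen after the values were seen. All 23 were losses, more than the 17 within the gene. The nearest 22 extended to 43.3 kb upstream, the last was at 70.1 kb, and none lay in another annotated gene.

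The upstream losses were larger and richer in CpGs than those within *Sptbn1*. Their median level was 65.6% in infant against 23.9% in young adult EC, with a median difference of -38.5 points (range -51.6 to -22.4). They had 5.22 CpGs on average and those in the gene 3.71, and at least 5 CpGs were found in 13 of 23 against 3 of 17. In the gene body, the first 21.5 kb, between the start sites of the longer and the shorter transcript, had 157 CpGs and no DMR midpoint. The loss centred 0.077 kb upstream spanned the start of the longer transcript and reached into the first bases of this stretch. By midpoint, the losses thus stood before the start of the longer and behind that of the shorter transcript, with none centred between.

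**Figure D4:**
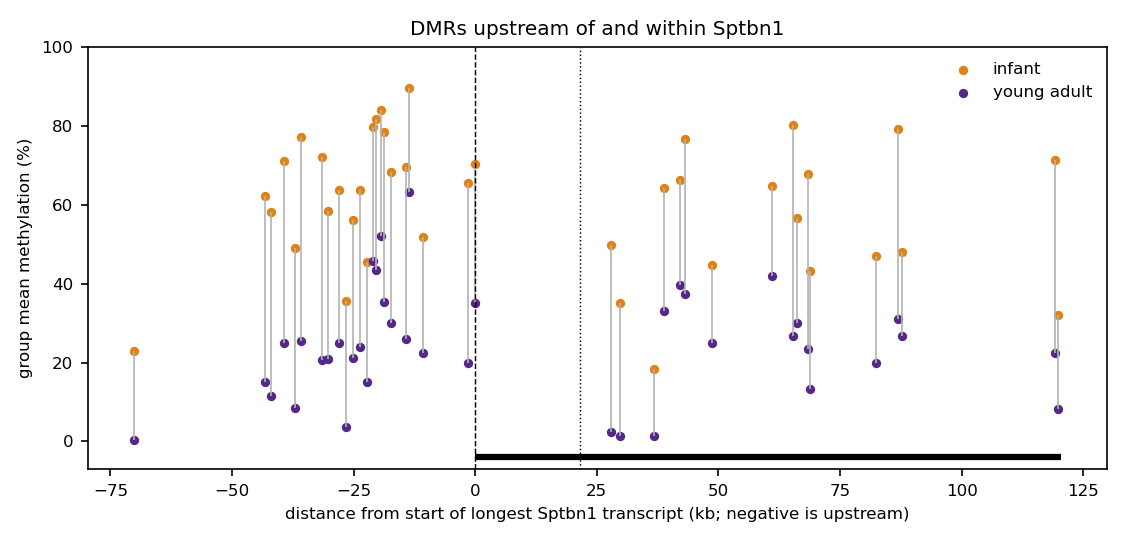
Group mean methylation in percent (vertical axis) of the DMRs upstream of and within *Sptbn1* in infant (orange) and young adult EC (purple) against the distance from the start of the longest transcript in kb (horizontal axis, negative upstream). The black bar is the gene, and the dashed and dotted lines are the start sites of the longer and the shorter transcript. Each grey line joins the values of 1 DMR, and the purple point is the lower in each pair.

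*Dpysl2*, which encodes the tubulin-binding CRMP2, had 14 losses and 0 gains (chr14:66802864-66911041, minus strand, 108 kb). The median level was 61.8% in infant against 24.2% in young adult EC, and the median difference was -33.7 points (range -55.9 to -19.2). The DMRs covered 61 of 1384 CpGs (4.41%). All of them were downstream of the start site of the shorter transcript, the first by 3.23 kb. The 42.4 kb between the start sites of the longer and the shorter transcript had 489 CpGs and no DMR.

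Intron 3 contained 8 of the 14 *Dpysl2* DMRs. The DMR with 7 CpGs among them (chr14:66834561-66834734) fell from 77.4 to 37.3%, and the other with 7 CpGs, in intron 11, from 59.9 to 27.4%. The largest loss of *Dpysl2*, in intron 8, was also the largest of all 110 DMRs, from 68.1 to 12.2%. Low infant levels of 22.9, 28.1 and 21.9% were found in 3 DMRs, which reached 3.74, 1.90 and 1.30% in young adult EC. At least 4 CpGs were present in 9 of the 14.

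Across the 5 loss-only genes the sizes overlapped widely, with interquartile ranges of -47.6 to -32.5 points in *Plxna1*, -38.9 to -28.3 in *Nrp1*, -41.7 to -26.7 in *Arhgef12*, -44.4 to -23.9 in *Sptbn1* and -38.9 to -28.8 in *Dpysl2*. The medians of the last 4 genes were within 3 points of that over all listed losses (-32.5), and that of *Plxna1* was the lowest (-43.3). Young adult EC had less than 20% methylation in 19 of the 86 losses (22.1%), and over all listed losses this share was 38.1%. It was 6 of 14 in *Dpysl2*, 6 of 17 in *Sptbn1*, 2 of 6 in *Plxna4*, 3 of 14 in *Plxna1*, 1 of 11 in *Nrp1* and 1 of 24 in *Arhgef12*. Losses of at least 40 points made up 29 of 86 (33.7%), against 20.3% over all listed losses, and 0 of 24 gains were that large, against 0.989% over all listed gains.

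The median width of the 110 DMRs was 152 bp against 126 bp over all DMRs, and their median CpG density 2.60 per 100 bp against 2.83. In *Plxna1* the median width was 318 bp and the median GC content 56.2%, against 48.6% over the 110 DMRs. Of the 86 losses 25 (29.1%) had at least 5 CpGs, against 25.6% over all listed losses, and of the 24 gains 2 (8.33%), against 7.41% over all listed gains. Of these DMRs, 7 were in *Plxna1*.

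Other genes of the pathway were described from 4 lists. Of 72 genes, 35 (48.6%) had a DMR, against 17.6% of all 26182 genes. Loss alone was present in 15, gain alone in 13 and both in 7. More than 5 DMRs were present in 8 of the 72, against 1.81% of all genes. As several of these genes were known from earlier results and long genes can hold more DMRs, these shares are no test of the lists.

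Among 20 semaphorin genes, 12 had DMRs, 6 with loss alone, 5 with gain alone and 1 with both. *Sema6a*, which encodes a membrane-bound ligand of class A plexins, had 45 losses with a median difference of -34.7 points. *Sema7a*, a GPI-anchored semaphorin gene, had 13 losses (median -35.4). Of the genes for secreted class 3 ligands, *Sema3f* had 7 losses (median -26.9) and *Sema3c* 6 (median -44.2). *Sema6d* had 8 losses and 2 gains.

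Of the other 7 plexin genes, 4 had DMRs and none had more than 3. *Plxnd1*, the endothelial receptor of semaphorin 3E, had 3 gains (median 23.7 points). *Plxna2* had 2 losses (median -35.3 points) and *Plxnb2* 2 losses (median -29.5). No gene of this list had DMRs of both directions.

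Among 18 genes of plexin signalling, 7 had DMRs, 3 with loss alone, 2 with gain alone and 2 with both. *Rac1*, the small GTPase that drives lamellipodia, had 9 losses (median -35.1 points). *Fyn*, a Src family kinase gene, had 1 loss and 6 gains (median over all 7 DMRs 23.5). Of 27 cytoskeletal genes, 12 had DMRs, 4 with loss alone, 4 with gain alone and 4 with both. Of these, *Myh9*, the heavy chain of non-muscle myosin IIA, had 9 losses (median -32.8), and no other had more than 5 DMRs.

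**Figure D5:**
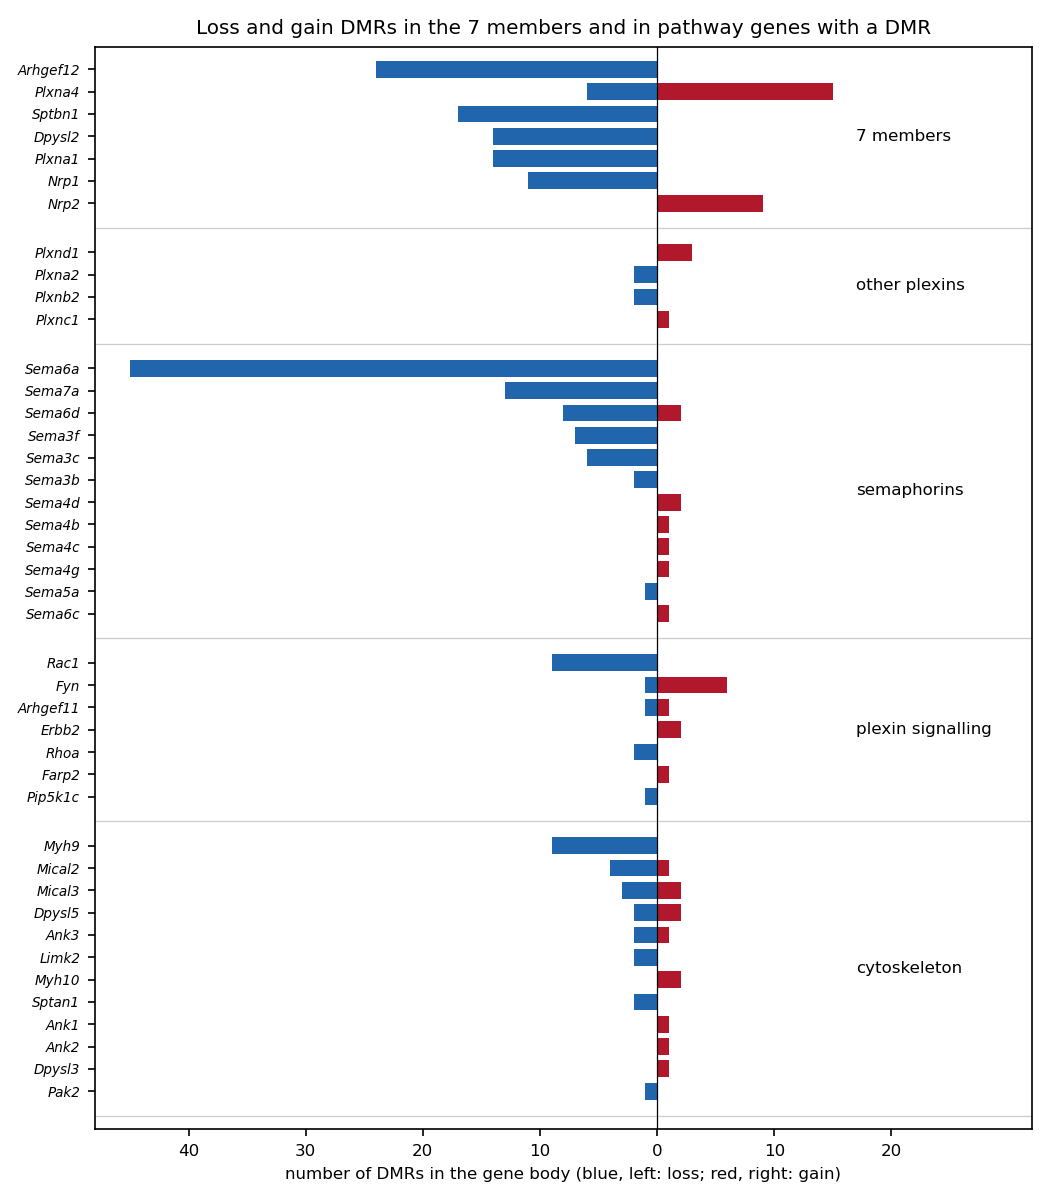
Number of DMRs in the gene body that lost (blue, to the left) or gained methylation (red, to the right) in young adult EC, for the 7 members and the 35 genes of the 4 lists that had a DMR. *Sema6a* (45 losses) exceeded each of the 7 members, and *Plxna4* had the most gains, 15.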

How the data were processed

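The authors aligned T-WGBS reads with BWA 0.6.1 to in silico converted mm10, removed duplicates and called methylation. Using bsseq without smoothing, they required a coverage of 8-fold in 2 of 3 samples per group for a CpG, and took as DMR a series of 3 or more neighbouring CpGs, each with a t-test below 0.05, whose group means were 10% or more apart. The deposited means are fractions per group, multiplied here to percent, and the list has 0 columns of values per sample.

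On GRCm38 each of the 18333 DMRs began and ended at a CpG, and its sign fitted its stated direction. Coordinates are 1-based, from the C of the first to the G of the last CpG. Midpoints were assigned to the bodies of 26182 genes (45756 curated RefSeq transcripts), and introns were numbered in the longest transcript. Python 3.11.15, pandas 2.3.3 and pysam 0.24.0 were used, and the counting was tested on simulated data.

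The members, lists and alternatives were chosen with earlier results of these data known. Genes named are the members, list genes with more than 5 DMRs or otherwise the 3 with the most, and the 5 genes nearest to *Plxna4* in gain share. Single DMRs named by rule are the largest loss and the most CpGs per member, the largest *Plxna4* gain, those in promoters or island windows and the one at the *Plxna1* primers. All other single DMRs, such as those at the ends of a group or with low infant levels, were named after their values were seen.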

Additional observations from a re-analysis of the deposited data

How the results depend on the processing

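Assignment by any overlap, by the longest transcript or with 10 kb to either side, a difference of at least 20 points and merging of DMRs within 500 bp left the 86 losses, the 24 gains and the 6 genes of 1 direction within 1.5 times, and the loss shares of *Plxna4* (28.6%) and of the other genes pooled (89.9%) within the counting intervals of these values. Merging took *Plxna1* from 14 to 6 DMRs. With each DMR given to its nearest promoter as the authors list it, the loss share of *Plxna4* was 0% over 2 DMRs, because 18 of its DMRs went to the antisense transcript *Plxna4os1* and 1 to *1700012A03Rik*. The 11 DMRs of *Nrp1* then went to *Mir1903*, *Plxna1* and *Nrp2* had both directions, and 4 genes had 1 direction. With at least 4 CpGs the genes had 43 losses and 11 gains, and the loss share of *Plxna4* was 0%. With at least 5 CpGs they had 25 losses and 2 gains, and the loss share was 0% in *Plxna4* (1 DMR) and 96.2% in the other 6 genes. The median difference of each gene moved by less than 1 SD over its DMRs in the 4 alternatives run for it. They were the mean weighted by CpG number, at least 4 CpGs, at least 5 CpGs and at least 20 points (*Plxna4* losses had none with 4 or 5 CpGs). Each alternative reused DMRs already split by direction, so no sign could change. The filter at 20 points also selects on the difference itself, so small moves lend the medians and directions little support. With at least 20 points, 6 list genes had gains alone and 4 both directions, against 13 and 7. No paired analysis was possible because the list holds group means only, and for the same reason fits that leave out a replicate were not run. Depth per DMR, the spread between samples and the error of a difference are unknown, and a gene stretch without DMRs may lack change or coverage.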

Other observations

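Some DMRs outside the gene bodies had a member as their nearest promoter in the list, and their directions differed between genes. For *Arhgef12* there were 2, both losses (-39.8 and -24.4 points) within 10 kb of the gene. For *Plxna1* there were 5, of which 4 were gains and 1 a loss, in contrast to the 14 losses within the gene, and their differences ran from -36.8 to 21.1 points. For *Nrp2* there were 6, with differences from -27.9 to 37.9 points. *Plxna4*, *Nrp1* and *Dpysl2* had 0 such DMRs. These DMRs were looked at after the values within the genes were known.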
